A study of Arabidopsis thaliana with 12 samples.

Results

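PSB27, LPA19, ATAB2, AT1G22700 and SECE1 are nuclear genes of Arabidopsis thaliana, the thale cress, grouped here as factors that assemble the photosystems, translate their subunits or insert proteins into the thylakoid membrane. They were chosen by name, with earlier results of these data known, on condition that each lay on a probe annotated to 1 gene. All 5 were found among 691 genes with a single name and 3439 probes in all. The series measured total RNA of wild-type plants, ecotype Columbia 0, on 12 arrays. In the ML_4C group, 6 arrays came from plants moved to 4 °C in medium light for 24 h, which the submitters call photoinhibitory. In the ML_20C group, 6 arrays came from plants grown at 20 °C under the same light label. The sources used here do not give the tissue, the age of the plants or the number of plants behind an array. The genotype and the light label are shared by both groups, so the comparison is of cold under light with growth temperature under light, without a dark control. No build is stated for the array, so no genome positions are given.

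The thylakoid membrane of the chloroplast holds photosystem II, which splits water, and photosystem I, which reduces ferredoxin. Both are built from chloroplast-encoded and nuclear-encoded subunits, and photosystem II is also taken apart and rebuilt continuously, because light damages its reaction centre. In the cold the repair slows while light absorption goes on, which is the basis of photoinhibition. PSB27 is a lumenal protein that binds photosystem II during its assembly and repair. LPA19, which the reference table also lists as Psb27-H1, is its homologue and is known for a role in processing a reaction centre protein of photosystem II. ATAB2 is an RNA-binding protein needed for translation of chloroplast messages for both photosystems. SECE1 is a small subunit of the Sec translocon, the channel through which proteins enter the thylakoid membrane and lumen. AT1G22700 carries no gene symbol in the reference table.

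SECE1 and ATAB2 fell in the cold, and SECE1 was the gene with the larger fall. Beside probes of similar brightness, the fall of ATAB2 lay within the quartiles and that of SECE1 below them. AT1G22700 passed as lower only as deposited, and after the arrays were rescaled its change had either sign and did not pass. LPA19 had lower deposited intensities in the cold and higher ones after each rescaling. PSB27 showed no difference that exceeded its spread, which was several-fold within each temperature. Thus 3 of the 5 genes passed the test as lower and 0 as higher, where 49.6% of all probes were called lower and 6.87% higher. Their median log2 change as deposited was -0.69, close to the -0.74 over all probes. It was 0.23 beside 0.17 after median centring, -0.17 beside 0.05 after quantile normalization and -0.25 beside -0.0004 after cyclic loess. These medians join genes of unlike change, and the 5 were not tested as a group.

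Intensities are linear values without a unit, and as deposited their means were close together, at 1.02 to 1.09 per array. At 4 °C the median intensity per array was 0.276 to 0.315, against 0.536 to 0.569 at 20 °C, and between 19.2% and 20.1% of all intensity at 4 °C sat in the 10 brightest features, against 13.1% to 13.9% at 20 °C. Arrays 1 and 2, 3 and 4, and 5 and 6 of a group deviated together, with correlations of 0.20 to 0.92 within these pairs and -0.68 to -0.08 between other arrays of a group. Deviations within a group tend to cancel, so negative values between other arrays are partly built in. Each pair was therefore averaged and counted as 1 sample, which leaves 3 per group. The sources used here do not say whether the pairs are repeats of 1 extract or the 3 samples separate plants, so the p-values cover the spread of these samples only, and that spread may be technical. Changes are log2 differences of pair means, 4 °C minus 20 °C, tested with limma over all probes, with a call at an adjusted p of 0.05. Fewer copies per cell and a smaller share of cells with the transcript cannot be told apart in such samples.

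**Figure D1:**
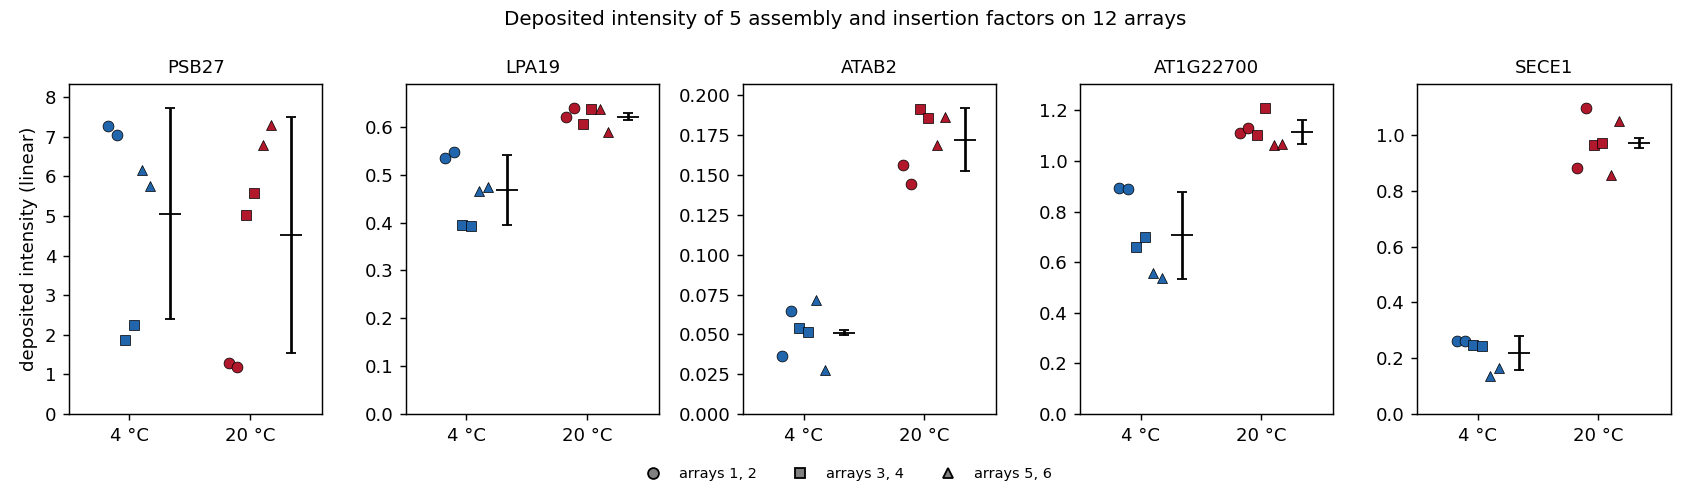
Deposited linear intensity (y axis, from 0, a separate scale for each gene) of the 5 factors on 6 arrays at 4 °C (blue) and 6 at 20 °C (red), with marker shape for the pair of arrays and a black bar for the mean ± SD of 3 pair means. LPA19, ATAB2, AT1G22700 and SECE1 have all 6 cold arrays below all 6 warm ones, whereas PSB27 has arrays 3 and 4 at 4 °C and arrays 1 and 2 at 20 °C far below its other arrays.

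PSB27 was the brightest of the 5, with 97.0% of features dimmer. Its pair means were 7.16, 2.06 and 5.96 at 4 °C, against 1.24, 5.29 and 7.04 at 20 °C. The groups overlapped: one pair was low at each temperature, and the remaining 8 arrays lay between 5.02 and 7.30. The mean was 5.06 ± 2.67 at 4 °C and 4.53 ± 2.97 at 20 °C (SD, n = 3 each), and the log2 change of 0.31 ± 0.80 (SE) did not pass (adjusted p = 0.76). Without arrays 1 and 2 at 20 °C the log2 change was -0.46, and without arrays 3 and 4 at 4 °C it was 0.86. Without arrays 1 and 2 at 4 °C, with both low pairs kept, it was -0.039, and after cyclic loess of all arrays -0.034.

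The split in PSB27 was large among the probes of this table. Its log2 pair means ranged over 1.80 at 4 °C and 2.50 at 20 °C, where the 200 probes nearest to it in mean log2 intensity had median ranges of 0.36 and 0.28. Of 3107 features above 0 on all arrays, 7 including PSB27 had ranges as large as its own in both groups. The arrays within a pair gave nearly equal PSB27 values, with a median log2 difference of 0.12 and at most 0.26.

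Low values in just these arrays were shared by other probes. In arrays 3 and 4 at 4 °C and arrays 1 and 2 at 20 °C together, 31 of 3108 probes were at least 2-fold below both other pairs of their group, whereas the other 8 combinations of a cold and a warm pair held between 0 and 3 such probes. Of the 31 probes, 7 had a single gene name: PSB27, GLR2.7, AT1G49850, AT2G25870, AT4G21770, AT4G33480 and AT4G38020, a set given after its values were seen. GLR2.7, a glutamate receptor-like protein, was also the gene whose pattern over the 6 pair means was most like that of PSB27, with 0.721, 0.216 and 0.435 at 4 °C and 0.139, 0.601 and 0.727 at 20 °C.

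The probes concerned had neighbouring numbers in the table. Of the 31 probes low in both pairs, 26 lay within 2 numbers of another of the 31. Arrays 1 and 2 at 20 °C alone were at least 2-fold below both other pairs for 196 probes, and 185 of these lay within 2 numbers of another such probe. The shares for probes scattered over the table were not computed. PSB27 is probe 2306, and its log2 deviation in those arrays was -2.29. The 8 measured probes within 5 numbers of it had a median deviation of -2.29 there, and 5 of the 8 were at least 2-fold low. In arrays 3 and 4 at 4 °C PSB27 deviated by -1.67 and these 8 probes by a median of -1.19, with 1 of the 8 at least 2-fold below both other pairs. The sources used here do not say whether probe numbers follow the place of a spot on the array, and the part of this pattern in the PSB27 values was not tested.

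**Figure D2:**
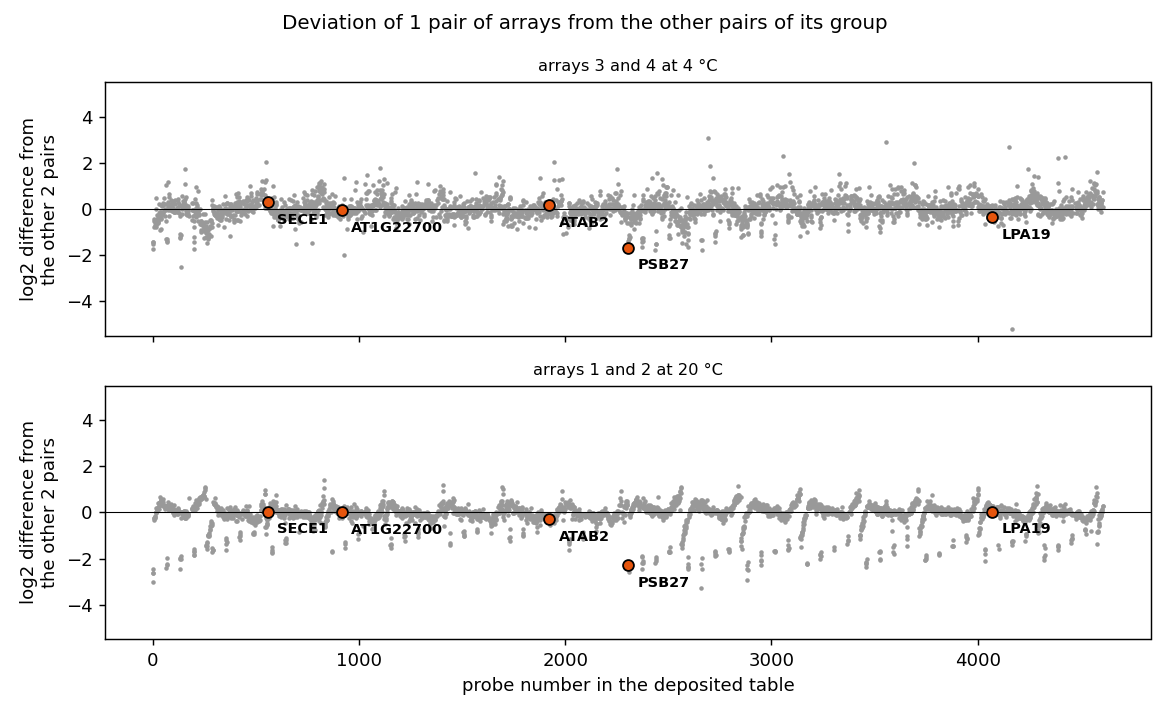
Log2 difference of 1 pair of arrays from the mean of the other 2 pairs of its group (y axis) against the probe's number in the deposited table (x axis), for arrays 3 and 4 at 4 °C (top) and arrays 1 and 2 at 20 °C (bottom), with 1 grey point per probe and the 5 factors in orange. In the lower panel low probes recur in clusters of neighbouring numbers, PSB27 lies among them at -2.29, and the other 4 factors lie between -0.29 and 0.04.

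The other 4 genes were not in such a stretch. Their own deviations in arrays 1 and 2 at 20 °C were 0.03 for LPA19, -0.29 for ATAB2, 0.02 for AT1G22700 and 0.04 for SECE1, and no probe within 5 numbers of any of them was 2-fold low there or in arrays 3 and 4 at 4 °C.

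LPA19 had pair means of 0.542, 0.393 and 0.470 at 4 °C, against 0.630, 0.621 and 0.614 at 20 °C. All 6 arrays at 4 °C, at 0.392 to 0.548, were below the 6 at 20 °C, at 0.590 to 0.639, which lay close together. Such lower values without overlap were found for 48.9% of probes, and for LPA19, ATAB2, AT1G22700 and SECE1 of the 5 genes. The mean was 0.468 ± 0.0741 at 4 °C and 0.622 ± 0.00779 at 20 °C (SD, n = 3 each), with a log2 change of -0.42 ± 0.16 (SE) that did not pass (adjusted p = 0.065). With the 12 arrays as single samples, as deposited, it passed as lower (adjusted p = 0.0018), as did 59.9% of probes in that fit.

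The direction for LPA19 turned with the scaling. Its log2 change was 0.49 ± 0.16 (SE) after each array was centred on its median, which passed as higher (adjusted p = 0.043), a call that 30.0% of probes received. It was 0.37 after quantile normalization (adjusted p = 0.056) and 0.36 after cyclic loess (adjusted p = 0.087). In these 3 scalings every cold pair mean was above every warm one, as for 36.6%, 28.8% and 27.6% of probes. With the 12 arrays as single samples, limma called it higher in each of them (adjusted p = 0.00048, 0.0011 and 0.0027). Those fits called 1335, 1083 and 1039 of 3378 probes higher. As deposited, its log2 change lay 0.32 above the median of all probes.

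ATAB2 was the dimmest of the 5, with 9.57% of features dimmer. Its pair means were 0.0506, 0.0529 and 0.0496 at 4 °C, against 0.150, 0.189 and 0.178 at 20 °C. The 6 arrays ranged over 0.0274 to 0.0718 at 4 °C and 0.144 to 0.191 at 20 °C, without overlap. The pair means at 4 °C were closer to each other than the arrays within them, since arrays 5 and 6 differed by 1.39 on the log2 scale. The mean was 0.0510 ± 0.00169 at 4 °C and 0.172 ± 0.0198 at 20 °C (SD, n = 3 each), a 3.53-fold fall with a log2 change of -1.82 ± 0.15 (SE; adjusted p = 0.000531). That SE rests on the close pair means. In a limma fit of 12 arrays with pairs as a random block it was 0.49 (adjusted p = 0.0071). With trended and robust variance in limma on pair means it was 0.36 (adjusted p = 0.0037).

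ATAB2 remained lower under every scaling of pair means, with a smaller size. The log2 change was -0.91 with median centring (adjusted p = 0.0046), -0.36 with quantile normalization (adjusted p = 0.038) and -0.48 with cyclic loess (adjusted p = 0.020). With quantile normalization of 12 single arrays the call was lost (adjusted p = 0.082). An offset of 0.0680 before log2, larger than its mean at 4 °C, gave -1.02.

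AT1G22700 had pair means of 0.890, 0.679 and 0.548 at 4 °C, against 1.12, 1.16 and 1.06 at 20 °C. All 6 arrays at 4 °C, at 0.538 to 0.893, were below the 6 at 20 °C, at 1.06 to 1.21, and the cold pairs were spread more widely than the warm ones. The mean was 0.706 ± 0.173 at 4 °C and 1.11 ± 0.0461 at 20 °C (SD, n = 3 each), a 1.61-fold fall with a log2 change of -0.69 ± 0.21 (SE; adjusted p = 0.033). The call was narrow: leaving out 1 pair of arrays in turn kept it in 1 of 6 fits, with adjusted p-values of 0.0097 to 0.087. It did not pass after median centring, at 0.23, quantile normalization, at -0.17, or cyclic loess, at -0.25.

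SECE1 had pair means of 0.262, 0.246 and 0.151 at 4 °C, against 0.989, 0.968 and 0.954 at 20 °C. The highest cold array, at 0.263, was far below the lowest warm array, at 0.858. The mean was 0.220 ± 0.0601 at 4 °C and 0.970 ± 0.0174 at 20 °C (SD, n = 3 each). This is a 4.54-fold fall, with a log2 change of -2.18 ± 0.24 (SE; adjusted p = 0.0010), 1.44 below the median change of all probes.

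SECE1 was the one gene of the 5 called lower in all 8 fits made from 4 scalings with pair means or single arrays, a result shared by 15.0% of probes. With pair means its log2 change was -1.27 after median centring, -1.39 after quantile normalization and -1.31 after cyclic loess, with adjusted p-values of 0.0054, 0.0049 and 0.0065. Leaving out 1 pair of arrays in turn gave log2 changes from -2.33 to -1.93, each past the threshold. Of the 5 genes, 2 were called lower under all 4 scalings of pair means, SECE1 and ATAB2, where 15.2% of probes were.

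**Figure D3:**
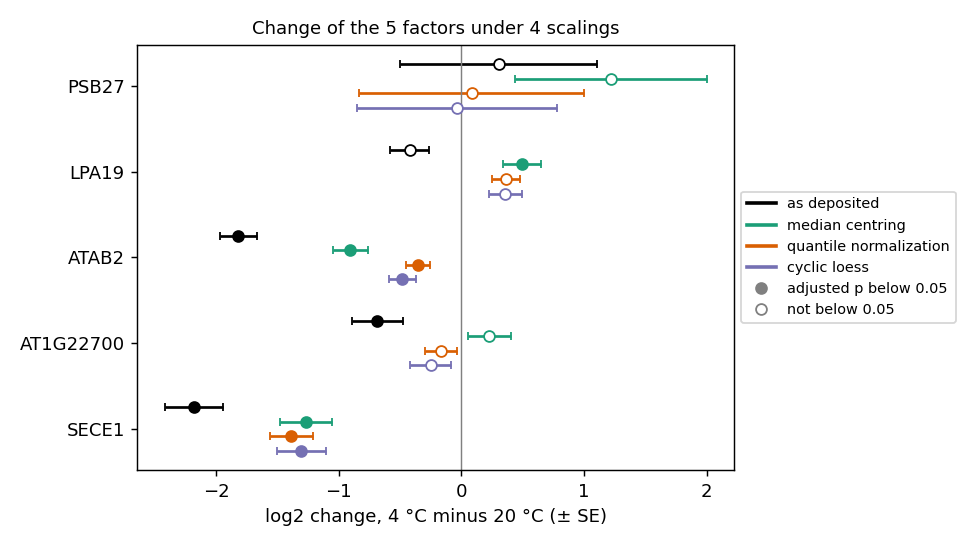
Log2 change, 4 °C minus 20 °C (x axis), of the 5 factors (rows) from limma on 3 pair means per group, under 4 scalings (colours), with bars of ± SE and filled points for an adjusted p below 0.05. SECE1 and ATAB2 lie left of 0 with filled points under all 4, LPA19 changes side, and the PSB27 bars are several times wider than the others.

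Since the change moved with brightness over the whole array, each gene was set beside the 200 probes nearest to it in mean log2 intensity, as a description without a test. SECE1 lay lowest relative to such probes: their median log2 change was -0.90, SECE1 stood 1.28 below it, and 16 of the 200 had a lower change. For ATAB2 the nearest probes had a median of -1.21, and 29.0% of them had a change lower than its -1.82. AT1G22700 lay 0.30 below a median of -0.38, with 37.5% of its nearest probes lower. LPA19 lay 0.29 above a median of -0.71, with 64.5% lower. PSB27 was near the middle, at 0.31 beside a median of 0.36, with 48.5% lower. The quartiles of the nearest probes ran from -1.50 to -0.20 for SECE1 and from -1.97 to -0.56 for ATAB2, so ATAB2 was inside this range and SECE1 outside it.

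**Figure D4:**
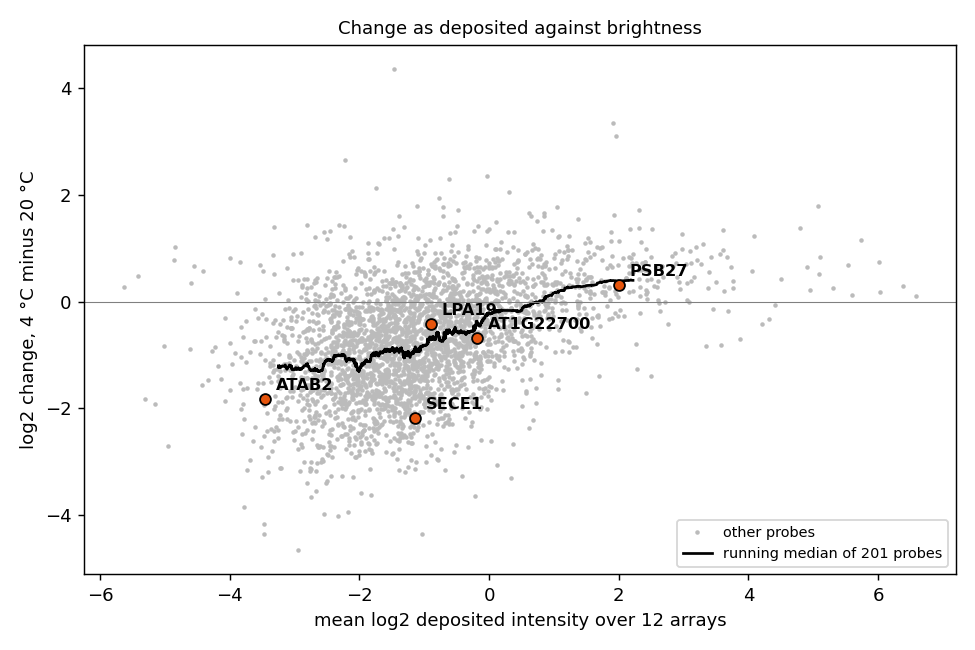
Log2 change as deposited, 4 °C minus 20 °C (y axis), against mean log2 intensity over 12 arrays (x axis) for features above 0 on all arrays (grey), with the running median in black and the 5 factors in orange. PSB27, LPA19 and AT1G22700 lie near the running median, ATAB2 is below it and SECE1, at -2.18, lies farther below it.

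The genes were also compared with each other through their ratio on the same array, which a constant scaling of an array cannot alter. Quantile normalization and cyclic loess, which act by brightness, can alter it, and the ratios are given as deposited only. Over 10 ratios of pair means, an exact two-sided permutation test of 3 against 3 cannot give a p below 0.10, and the smallest value after adjustment over the 10 was 0.17. The ratio of LPA19 to SECE1 was 1.76 higher on the log2 scale at 4 °C than at 20 °C, without overlap (exact p = 0.10). The log2 ratio of ATAB2 to AT1G22700 changed by -1.14, also without overlap (exact p = 0.10). The ratio of ATAB2 to SECE1 changed by 0.36 with overlapping groups (exact p = 0.30), and that of LPA19 to AT1G22700 by 0.26 without overlap (exact p = 0.10). After cyclic loess the log2 changes were 0.36 for LPA19, -0.48 for ATAB2, -0.25 for AT1G22700 and -1.31 for SECE1. ATAB2 then lay closer to AT1G22700 and further from SECE1 than as deposited.

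By the root mean square difference of centred log2 intensities over the 6 pair means, each gene had close matches among 612 other single-name genes. For SECE1 these were AT3G07790 and AT5G40030, at 0.14 and 0.15, for ATAB2 AT3G56330 and AT3G11150, at 0.06 and 0.08, and for AT1G22700 AT1G76240 and AT3G16310, at 0.05 and 0.09. LPA19 was most like LrgB and AT1G06510, both at 0.09, and PSB27 most like GLR2.7 and AT4G33540, at 0.21 and 0.32. AT3G07790 had 0.226 ± 0.0536 at 4 °C and 1.10 ± 0.0409 at 20 °C, and AT3G56330 had 0.347 ± 0.0164 at 4 °C and 1.29 ± 0.148 at 20 °C (SD, n = 3 each). Among the 5 genes, SECE1 and ATAB2 differed by 0.29, LPA19 and AT1G22700 by 0.22, and PSB27 by 0.97 or more from each of the others. Many other genes lay closer: ATAB2 ranked 27 for SECE1 and SECE1 ranked 69 for ATAB2. AT1G22700 ranked 65 for LPA19 and LPA19 ranked 61 for AT1G22700. Over the 612 genes the median difference ran from 0.46 for LPA19 to 1.14 for PSB27. This measure includes the change with temperature, so genes with a like fall score as alike.

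Of 47 other assembly, insertion and export factors of thylakoid complexes that were listed by locus, 3 had a single-name probe and 3 more were found only on probes that several genes share, and these are not used here. None of the partners of SECE1 in membrane insertion, such as SCY1 and ALB3, was on a single-name probe. AT1G49380 fell as deposited and passed under no other scaling. Its mean was 0.178 ± 0.0169 at 4 °C and 0.387 ± 0.0484 at 20 °C (SD, n = 3 each), with a log2 change of -1.12 as deposited (adjusted p = 0.0022). AT1G54500 had 0.725 ± 0.0805 at 4 °C and 0.650 ± 0.0267 at 20 °C and did not pass as deposited, at 0.15, but passed as higher under each other scaling, at 1.07, 0.84 and 0.77. In that order, the scalings called 1015, 658 and 646 of 3378 probes higher. CCB3, a factor of cytochrome complex assembly, was listed at 0 on 5 arrays at 4 °C and on all 6 at 20 °C. As deposited 1 of these 3 genes was lower and 0 higher, beside 49.6% and 6.87% of all probes. No median is given, since the fitted change of CCB3 rests on arrays where it is listed at 0.

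Photosystem subunits and an antenna protein were measured on 4 single-name probes. PSAN, a lumenal subunit of photosystem I, had 1.27 ± 0.0381 at 4 °C and 3.52 ± 0.485 at 20 °C, and was lower under all 4 scalings of pair means. PSBW, a small subunit of photosystem II, had 46.1 ± 5.38 at 4 °C and 25.7 ± 1.69 at 20 °C and passed as higher as deposited and after median centring only. PSBY, another such subunit, stood at 1.38 ± 0.177 at 4 °C and 1.55 ± 0.216 at 20 °C and passed, as higher, after median centring only (SD, n = 3 each). After median centring 30.0% of all probes were called higher. So were 88% of the 200 probes nearest in brightness to PSBW and 60% of those nearest to PSBY. As deposited, 37.5% of the probes nearest to PSBW were called higher. Of the nearest probes, 80.5% had a lower change than PSBW as deposited and 48.5% a lower change than PSBY. LHB1B2, an antenna protein from a family of similar genes whose transcripts its probe may share, was lower as deposited at a log2 change of -0.83, after quantile normalization at -1.23 and after cyclic loess at -1.34, but had 0.08 after median centring and did not pass there. The 200 probes nearest to it in brightness had a median change of 1.31 after median centring and 0.40 as deposited. In each case 2% of them had a lower change than LHB1B2. As deposited 2 of these 4 genes were lower and 1 higher, beside 49.6% and 6.87% of all probes, with a median log2 change of -0.50. These genes were chosen with their earlier results known.

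**Figure D5:**
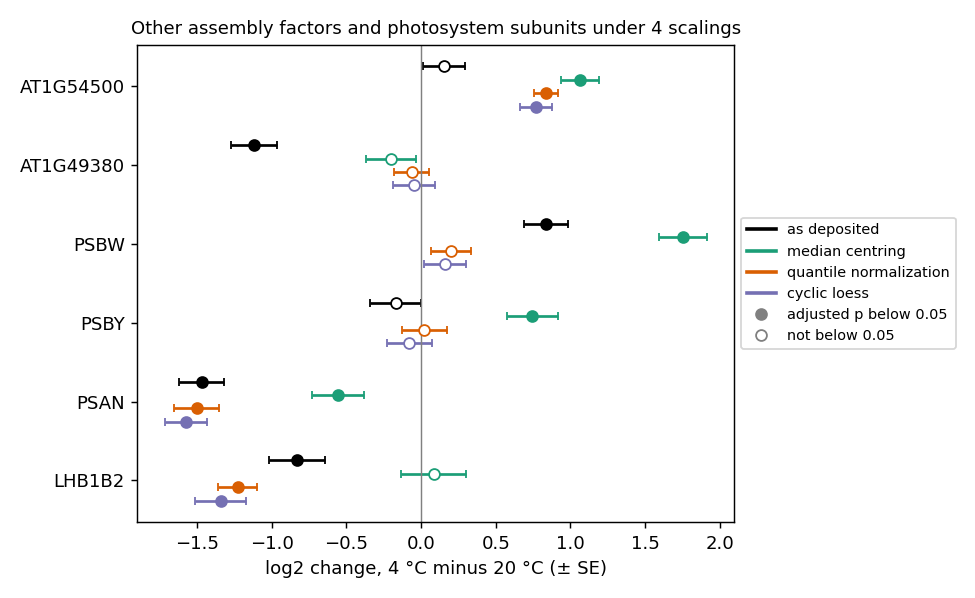
Log2 change, 4 °C minus 20 °C (x axis), of 2 other assembly factors and 4 photosystem subunits (rows) under 4 scalings (colours), with bars of ± SE over 3 pair means per group and filled points for an adjusted p below 0.05. PSAN lies left of 0 under all 4 scalings, AT1G54500 lies right of it, and PSBY and LHB1B2 change side.

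Of 8 markers of flower, seed and root, 1 had a single-name probe. This was SPL, a regulator of sporogenous tissue, with 0.287 ± 0.0154 at 4 °C and 0.691 ± 0.0269 at 20 °C (SD, n = 3 each). Of 4 markers of green tissue only LHB1B2 was measured, so the tissue could not be checked further and its part in these results was not tested.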

How the data were processed

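The authors deposited 1 linear intensity per probe for each of 12 arrays, and these values are used unscaled in the results given first. The sources used here do not name the array type, the scanner or the scaling. Of 3439 probes, 692 had 1 gene name, 870 several and 1877 none. For 690 probes the symbol was updated by gene identifier to the assembly GCF_000001735.4 TAIR10.1, and a gene on 2 probes was averaged. Zeros took the smallest positive value of their array before log2. Log2 values were averaged within pairs of arrays and fitted in R 4.3.3 with limma 3.58.1 (lmFit, eBayes, two-sided), with Benjamini-Hochberg adjustment over 3438 features. Calls were counted over 3378 features with a value above 0 on some array. Means and SDs are of linear pair means, and folds are antilogs of log2 changes. The limma fit of pair means was tested on simulated log2 values. Besides the 5 genes, the text names listed genes on single-name probes and the 2 genes most like each of the 5. Members, lists and tests were chosen with earlier results of these data known. The comparison by probe number was added after seeing the data.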

Additional observations from a re-analysis of the deposited data

Results flagged for a closer look

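CCB3, a factor of cytochrome complex assembly, had 1 array at 4 °C, array 3, at 0.0209, while the other 5 arrays at 4 °C and all 6 at 20 °C listed it at 0. Array 3 therefore stood apart from its group. This comparison finds a single array only, so the low pairs of arrays in PSB27 were not found by it. No single array stood apart for PSB27, LPA19, ATAB2, AT1G22700 or SECE1.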

How the results depend on the processing

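SECE1 kept its direction and its call under all 19 alternatives, 3 of them, the rescaled values of 12 single arrays, added after seeing the data. ATAB2 kept both under 17 of 18. It lost its call at -0.36 after quantile normalization of 12 single arrays, and it is among the 860 dimmest features that another alternative leaves out. For ATAB2 and SECE1, leaving out 1 pair of arrays in turn gave log2 changes of -1.92 to -1.75 and -2.33 to -1.93. LPA19 reversed to 0.49 after median centring, 0.37 after quantile normalization and 0.36 after cyclic loess. With 12 single arrays it passed as higher after each of these rescalings. Without rescaling it passed as lower at -0.42 with 12 arrays, with pairs as a random block and with the replicate block. With an offset it passed as lower at -0.37. Leaving out 1 pair gave -0.53 to -0.30, and it passed, at -0.53, only without arrays 1 and 2 at 4 °C. AT1G22700 reversed to 0.23 with median centring, lost its call at -0.17 and -0.25 with quantile normalization and cyclic loess, and ran from -0.87 to -0.52 without 1 pair. PSB27 reversed to -0.034 with cyclic loess and ran from -0.46 to 0.86 without 1 pair. The cause of these turns was not tested.

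The calls over all probes were 1675 lower and 232 higher, while centring on medians gave 638 lower and 1015 higher, quantile normalization 692 lower and 658 higher, and cyclic loess 703 lower and 646 higher. In that order the rescaled single arrays gave 896, 1028 and 1038 lower and 1335, 1083 and 1039 higher. Higher calls were 420 with 12 arrays, 353 with pairs as a random block, 424 with the replicate block and 142 to 211 without 1 pair, and lower calls were 1383 to 1621 without 1 pair. Without the last pair at 20 °C, arrays 5 and 6, 142 were higher. Of the other 3 factors, 1 was lower as deposited, and 0 were lower and 1 higher under the other 3 scalings of pair means or single arrays. Deviations of same-numbered pairs correlated at -0.30, -0.01 and 0.12 between groups, so no clear shared deviation by replicate number was seen. Such correlations cannot settle whether the numbers pair the samples. With these numbers as a block SECE1, ATAB2 and AT1G22700 kept their calls. With 3 pairs a group, only changes well above the spread between pairs can be called, and ATAB2 lay near the dim end of the arrays.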
